A study of Mus musculus with 12 samples.

Results

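The 9 genes Fgf5, Nodal, Cer1, Sfrp2, Otx2, Pou3f1, Sox3, Zic2 and Foxd3, which mark the formative and primed states of pluripotency, were followed through an array study of Dppa2 and Dppa4 in mouse embryonic stem cells. The first 4 encode secreted proteins and the other 5 transcription factors. They were chosen by name, though with earlier results of these data known. All 9 of 9 were measured by a probe set that the array annotation gives to a single gene, among 22180 genes so measured. Sfrp2 had a second such probe set, and the one with the higher mean over all arrays was used.

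There were 12 arrays in 4 groups of 3, and every group carried a tdTomato reporter driven by MERVL, a retrovirus-derived element of the mouse genome. KO+Mut cells were knockout cells of Dppa2 and Dppa4 given plasmids for SUMO-deficient forms of both proteins fused to GFP. KO+WT cells were the same knockout cells given wild-type forms fused to GFP. KO cells had both genes knocked out and no add-back, and parental cells had only the reporter. The plasmids were delivered with lipofectamine and GFP-positive cells were then sorted, steps that the labels do not give for KO or parental cells, so these steps cannot be told apart from the add-back itself in any comparison across them. All cells grew on gelatin with serum replacement and LIF. The labels do not say how many clones stand behind the knockout. They name the replicates biological without saying whether these were separate cultures, so p-values measure the spread between these samples, which may be technical.

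Embryonic stem cells kept with LIF resemble the naive epiblast of the embryo before implantation. As the epiblast leaves that state, cells pass through a formative phase in which Fgf5, Otx2 and Pou3f1 (also called Oct6) come on and naive factors go down, and then a primed phase that depends on FGF and on Nodal or activin signalling. In culture with LIF a minority of cells can carry such transcripts, so a bulk level mixes cells of different states. A lower bulk signal may reflect fewer cells of a type or less RNA per cell, and these cannot be told apart here.

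Several markers of pluripotent cells had high signals in each group, but not all of them. Nanog and Zfp42, markers of embryonic stem cells, lay at or above percentile 99.2 of all genes on each array, and Sox2 at or above percentile 97.75. Pou5f1 lay at or above percentile 77.17, with signals of 6.60 to 6.87. Dppa5a averaged 4.31 in KO and 4.08 in parental cells. Between groups, 0 of 9 general pluripotency genes passed the limma test in any comparison, which describes differences and not identity. With the replicate number as a block, however, Sox2 and Lin28a were called lower in KO+Mut than in parental cells (by 0.40 and 0.84). Lin28a was also called lower in KO+WT than in parental cells (by 0.99). Each of these calls was lost in at least 5 of 6 fits that left out 1 array. Dppa2 had median signals of 11.17 in KO+Mut, 11.11 in KO+WT, 8.63 in KO and 9.81 in parental cells (log2). Dppa4 had medians of 10.55 in KO+Mut, 10.49 in KO+WT, 7.63 in KO and 8.56 in parental cells. No source used here places the probes on the deleted stretch, and probes outside it check nothing. Median signals of the arrays were 3.73 to 3.88 and the 66 pairs of arrays correlated at 0.976 to 0.994 across genes. Precision is limited by the 3 arrays of a group: the 95% interval of a difference reached 0.344 log2 to either side for the median gene.

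None of the 9 genes passed the test of limma, a linear model with a spread shared across genes, in any of the 6 comparisons at an adjusted p of 0.05. In KO against parental cells 0 of 9 passed and 3 had an unadjusted p below 0.05, where 0.239% of all genes passed and 6.94% had an unadjusted p below 0.05. In KO+WT against KO cells the counts were 0 and 2 of 9, against 0.83% and 12% of all genes. In KO+Mut against KO cells they were 0 and 3 of 9, against 1.27% and 12.5%. In KO+Mut against KO+WT cells they were 0 and 0 of 9, against 0% and 3.04%. In KO+WT against parental cells they were 0 and 2 of 9, against 0.55% and 10.7%, and in KO+Mut against parental cells 0 and 3 of 9, against 0.992% and 11.5%. The comparisons share arrays and are not independent of each other.

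With the replicate number as a block, which removes differences between same-numbered arrays that all groups share, some of the members passed. This fit called 1 of 9 (Sfrp2) in KO against parental cells, where it called 0.618% of all genes. It called 2 of 9 (Otx2 and Sfrp2) in KO+WT against parental cells (2.06% of all genes) and 3 of 9 (Otx2, Sfrp2 and Sox3) in KO+Mut against parental cells (3.13%). In KO+Mut against KO+WT cells it called 0 of 9, and 0% of all genes. When that block was used with only the 6 arrays of a comparison, 0 of 9 members passed in each of the 6 comparisons, so these calls depend on the spread that the other arrays supply.

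Counted by arrays, the groups did not overlap for 3 of 9 genes in KO against parental cells, where 12.9% of all genes had groups that did not overlap. The count was 3 of 9 in KO+WT against KO cells (16% of all genes), 3 of 9 in KO+Mut against KO cells (18%), 1 of 9 in KO+Mut against KO+WT cells (6.68%), 2 of 9 in KO+WT against parental cells (15.9%) and 3 of 9 in KO+Mut against parental cells (18%). The median difference over the 9 genes lay between -0.04 and 0.06 log2 in the 6 comparisons, and over all genes between -0.01 and 0.00. The 9 genes did not move together, as the plot of the signal on each array shows.

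**Figure D1:**
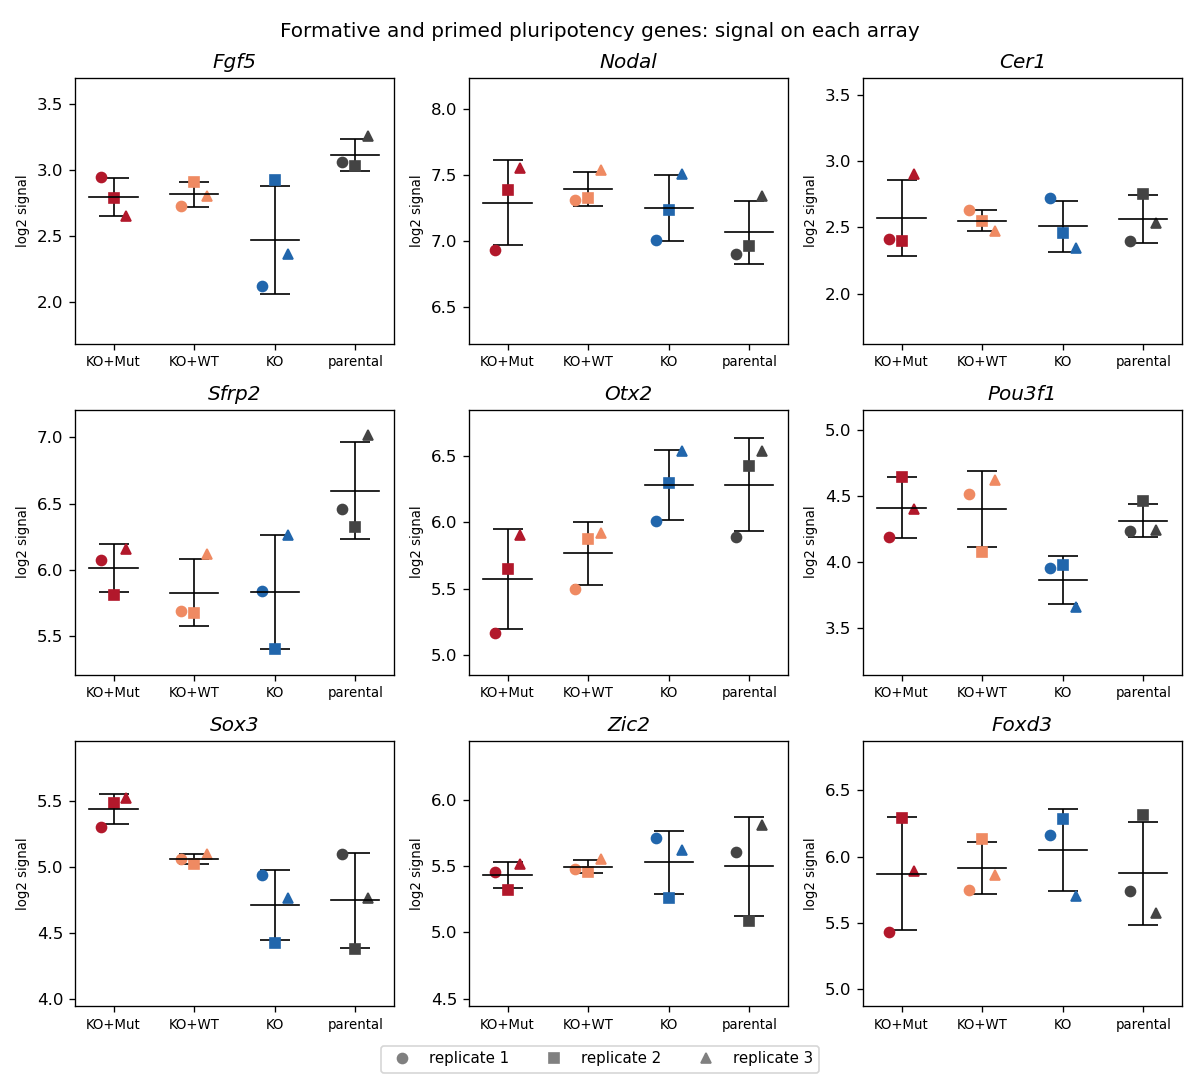
Signal (log2, vertical axis) of each of the 9 genes on each of the 12 arrays, by group on the horizontal axis; symbols give the replicate number, and bars the mean and SD of 3 arrays. Foxd3, Sfrp2 and Otx2 have the widest spread within groups (SD pooled over groups 0.34, 0.32 and 0.31). Sox3 lies highest in KO+Mut cells, and the Fgf5 and Cer1 panels span low signals. The vertical scales differ between panels and levels of different genes are not comparable.

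Fgf5, a growth factor of the FGF family and the classic marker of the formative epiblast, was the member with the smallest p in KO against parental cells. Its signal was 2.94, 2.79 and 2.65 on KO+Mut replicates 1, 2 and 3, and 2.73, 2.91 and 2.80 on the KO+WT replicates. It was 2.13, 2.92 and 2.36 on the KO replicates, against 3.06, 3.03 and 3.25 on the parental replicates. All 9 arrays of cells that lack the endogenous genes lay below all 3 parental arrays, while the KO arrays overlapped with the add-back arrays. KO cells were lower than parental cells by 0.64 (SE 0.18, 1.56-fold, adjusted p = 0.283), which did not pass. Leaving out 1 array at a time kept that difference between -0.87 and -0.47. Fgf5 was also 0.32 lower in KO+Mut (adjusted p = 0.540) and 0.30 lower in KO+WT cells (adjusted p = 0.590) than in parental cells. KO+Mut and KO+WT cells differed by -0.02, with a 95% interval from -0.40 to 0.36. The signal lay below the lower quartile of all genes on 5 of 12 arrays, and no detection calls were used, so part of these values may be background.

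The region before the Fgf5 start is printed because it holds the most CpG among the members with a promoter window, while the one before the first Otx2 start shows a CpG-poorer window. The sequences are from RefSeq (GRCm38.p6), with 250 bases before the start and each CpG in capitals. Fgf5 lies at chr5:98253934-98254183 (plus strand) and Otx2 at chr14:48667645-48667894 (minus strand), both outside the annotated gene.
Fgf5: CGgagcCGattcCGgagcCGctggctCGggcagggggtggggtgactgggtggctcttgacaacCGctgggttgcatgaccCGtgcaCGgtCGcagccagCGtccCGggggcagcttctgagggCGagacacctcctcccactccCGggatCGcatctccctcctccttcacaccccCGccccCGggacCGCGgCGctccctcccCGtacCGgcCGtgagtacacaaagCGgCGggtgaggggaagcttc
Otx2: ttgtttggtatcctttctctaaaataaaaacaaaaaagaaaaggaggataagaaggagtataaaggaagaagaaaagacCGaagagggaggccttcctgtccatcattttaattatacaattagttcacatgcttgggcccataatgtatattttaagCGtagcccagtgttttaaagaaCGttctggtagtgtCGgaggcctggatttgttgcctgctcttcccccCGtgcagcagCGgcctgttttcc
Fgf5 holds 24 CpG in this window and the first Otx2 window 6. The other 3 Otx2 windows hold 8, 14 and 9, Foxd3 21, Sfrp2 16, Cer1 5 and Nodal 3, beside a median of 6 and quartiles of 2 and 16 over 32851 windows of that length. Windows were at hand for 6 of the 9 genes, and Pou3f1, Zic2 and Sox3 are named only.

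Sfrp2, a secreted protein that binds WNT ligands, was lower by the probe set used in every group without the endogenous genes. Its signal was 6.08, 5.81 and 6.15 on the KO+Mut replicates and 5.69, 5.67 and 6.12 on the KO+WT replicates. It was 5.84, 5.40 and 6.26 on the KO replicates, against 6.46, 6.32 and 7.01 on the parental replicates. No array of the 3 other groups reached the lowest parental array. KO cells were lower than parental cells by 0.76 (SE 0.23, 1.70-fold, adjusted p = 0.369). KO+WT cells were lower by 0.77 (SE 0.23, adjusted p = 0.215) and KO+Mut cells by 0.58 (SE 0.23, adjusted p = 0.338).

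With the replicate number as a block, Sfrp2 passed in all 3 of these comparisons, with adjusted p = 0.0279 for KO, 0.0161 for KO+WT and 0.0333 for KO+Mut cells against parental cells. Those calls did not hold when single arrays were left out. The KO call was lost in 6 of 6 such fits (adjusted p up to 0.128, without parental replicate 3), the KO+WT call in 4 of 6 (up to 0.0786, without parental replicate 2) and the KO+Mut call in 6 of 6 (up to 0.126). The add-backs did not differ from KO cells beyond the spread: the difference was 0.18 for KO+Mut (95% interval -0.32 to 0.67) and -0.01 for KO+WT cells (-0.50 to 0.49). The second Sfrp2 probe set, with a mean signal of 4.50, gave smaller differences from parental cells, of -0.03 in KO+Mut, -0.08 in KO+WT and -0.21 in KO cells (SE 0.19). Their unadjusted p-values in the limma fit of all probe sets were 0.88, 0.69 and 0.28. The fall was thus seen with the probe set used and not beyond the spread with the second.

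The bases around an octamer before the Sfrp2 start are shown because it is the only member window that holds this motif of POU factors, the family of Pou3f1. They lie at chr3:83766263-83766292 (GRCm38.p6, plus strand), inside the interval annotated for the gene. The capitals mark the octamer ATGCAAAT read on the opposite strand, with its first base 47 bases before the start.
Sfrp2: tccacctccagATTTGCATaaaaaaggcca
The octamer, searched on both strands, was in 1.60% of all windows. ACAAAG, a SOX motif, was in 16.5% of them and in those of Fgf5 and Nodal. TAATCC, an OTX motif, was in 6.25% and in those of Sfrp2 and the third Otx2 start, and TATAAA was in 12.4% and in that of the first Otx2 start. A match to these letters is a description and not a binding site.

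Nodal, the TGF-beta family ligand that sustains primed pluripotency, had signals of 6.93, 7.38 and 7.55 in KO+Mut and 7.31, 7.33 and 7.54 in KO+WT cells. It had 7.01, 7.24 and 7.51 in KO cells, against 6.90, 6.96 and 7.34 in parental cells. The groups overlapped, although each KO, KO+WT and KO+Mut array lay above the parental array of the same number. The differences from parental cells were 0.22 in KO+Mut (adjusted p = 0.722), 0.32 in KO+WT (adjusted p = 0.577) and 0.18 in KO cells (adjusted p = 0.974), and none passed.

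Cer1, a secreted antagonist of Nodal, BMP and WNT ligands, lay between 2.35 and 2.90 on the 12 arrays. Its 4 group means were within 0.06 log2 of each other. It lay below the lower quartile of all genes on 10 of 12 arrays, so a difference in Cer1 would be hard to see at this level.

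Otx2, a homeodomain factor that drives the exit from the naive state, was lower in both add-backs than in KO or parental cells. Its signal was 5.16, 5.65 and 5.90 on KO+Mut replicates 1, 2 and 3, and 5.49, 5.88 and 5.92 on KO+WT replicates. It was 6.01, 6.30 and 6.54 on KO replicates, against 5.89, 6.42 and 6.54 on parental replicates. All 6 add-back arrays lay below all 3 KO arrays. KO+Mut cells were lower than KO cells by 0.71 (SE 0.22, 1.64-fold, adjusted p = 0.179) and KO+WT cells by 0.52 (SE 0.22, adjusted p = 0.377), and neither passed. The difference between KO and parental cells was -0.0011, with a 95% interval from -0.48 to 0.48.

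Against parental cells, Otx2 was lower by 0.71 in KO+Mut (SE 0.22, adjusted p = 0.202) and by 0.52 in KO+WT cells (SE 0.22, adjusted p = 0.418). KO+Mut replicate 3 and KO+WT replicate 3 overlapped with parental replicate 1, but every add-back array lay below the parental array of its own number. With the replicate number as a block Otx2 fell in KO+Mut cells (adjusted p = 0.00441), and it stayed below the threshold in 6 of 6 fits that left out 1 array (adjusted p 0.0161 to 0.0354). In the fit of the 6 arrays alone with that block the adjusted p was 0.0539. For KO+WT cells the block gave an adjusted p of 0.0262, which was lost in 6 of 6 fits that left out 1 array (up to 0.128, without parental replicate 2). The difference between KO+Mut and KO+WT cells was -0.19, with a 95% interval from -0.67 to 0.29.

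Sox3, a SOX factor of the epiblast and early neural plate, was the member with the smallest p in both comparisons of KO+Mut cells with KO and parental cells. Its signal was 5.30, 5.48 and 5.52 on KO+Mut replicates and 5.06, 5.02 and 5.10 on KO+WT replicates. It was 4.94, 4.43 and 4.77 on KO replicates, against 5.10, 4.38 and 4.76 on parental replicates. The 3 KO+Mut arrays lay above the 9 other arrays. KO+Mut cells were higher than KO cells by 0.72 (SE 0.18, 1.65-fold, adjusted p = 0.0749), and without any 1 array the difference was between 0.58 and 0.84. They were higher than parental cells by 0.69 (SE 0.18, adjusted p = 0.105). Neither passed, but the comparison with parental cells passed without parental replicate 1, where the difference was 0.87 (adjusted p = 0.0463).

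With the replicate number as a block, the higher Sox3 signal of KO+Mut against parental cells had an adjusted p of 0.0454, lost in 4 of 6 fits that left out 1 array (up to 0.184). KO+Mut against KO+WT cells gave 0.38 (SE 0.18, 95% interval -0.0019 to 0.76, adjusted p = 1). Sox3 was the only member whose KO+Mut and KO+WT arrays did not overlap. KO+WT cells were 0.35 above KO cells (adjusted p = 0.468) with arrays that did not overlap, and 0.31 above parental cells (adjusted p = 0.576) with arrays that did.

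Pou3f1, a POU-domain factor of the formative epiblast and of neural precursors, was lowest in KO cells. Its signal was 4.19, 4.64 and 4.40 on KO+Mut replicates and 4.52, 4.08 and 4.62 on KO+WT replicates. It was 3.96, 3.98 and 3.66 on KO replicates, against 4.24, 4.46 and 4.24 on parental replicates. The 3 KO arrays lay below the 9 others. KO+Mut cells were above KO cells by 0.55 (SE 0.17, adjusted p = 0.168) and KO+WT cells by 0.54 (SE 0.17, adjusted p = 0.195). KO cells were below parental cells by 0.45 (SE 0.17, adjusted p = 0.553), and none of these passed. The add-backs differed from parental cells by 0.10 for KO+Mut and 0.09 for KO+WT.

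Zic2, a zinc finger factor active in primed cells, and Foxd3, a forkhead factor needed for the epiblast, had group means that spanned 0.10 and 0.18 log2. Zic2 lay between 5.32 and 5.51 in KO+Mut, 5.46 and 5.55 in KO+WT, 5.26 and 5.71 in KO and 5.08 and 5.81 in parental cells. Foxd3 lay between 5.43 and 6.29 in KO+Mut, 5.75 and 6.13 in KO+WT, 5.70 and 6.29 in KO and 5.57 and 6.31 in parental cells. All groups overlapped for both genes. The largest difference of either gene was 0.18 in size, less than its SE of 0.24 for Foxd3, and the interval of KO minus parental for Foxd3 reached from -0.34 to 0.69.

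**Figure D2:**
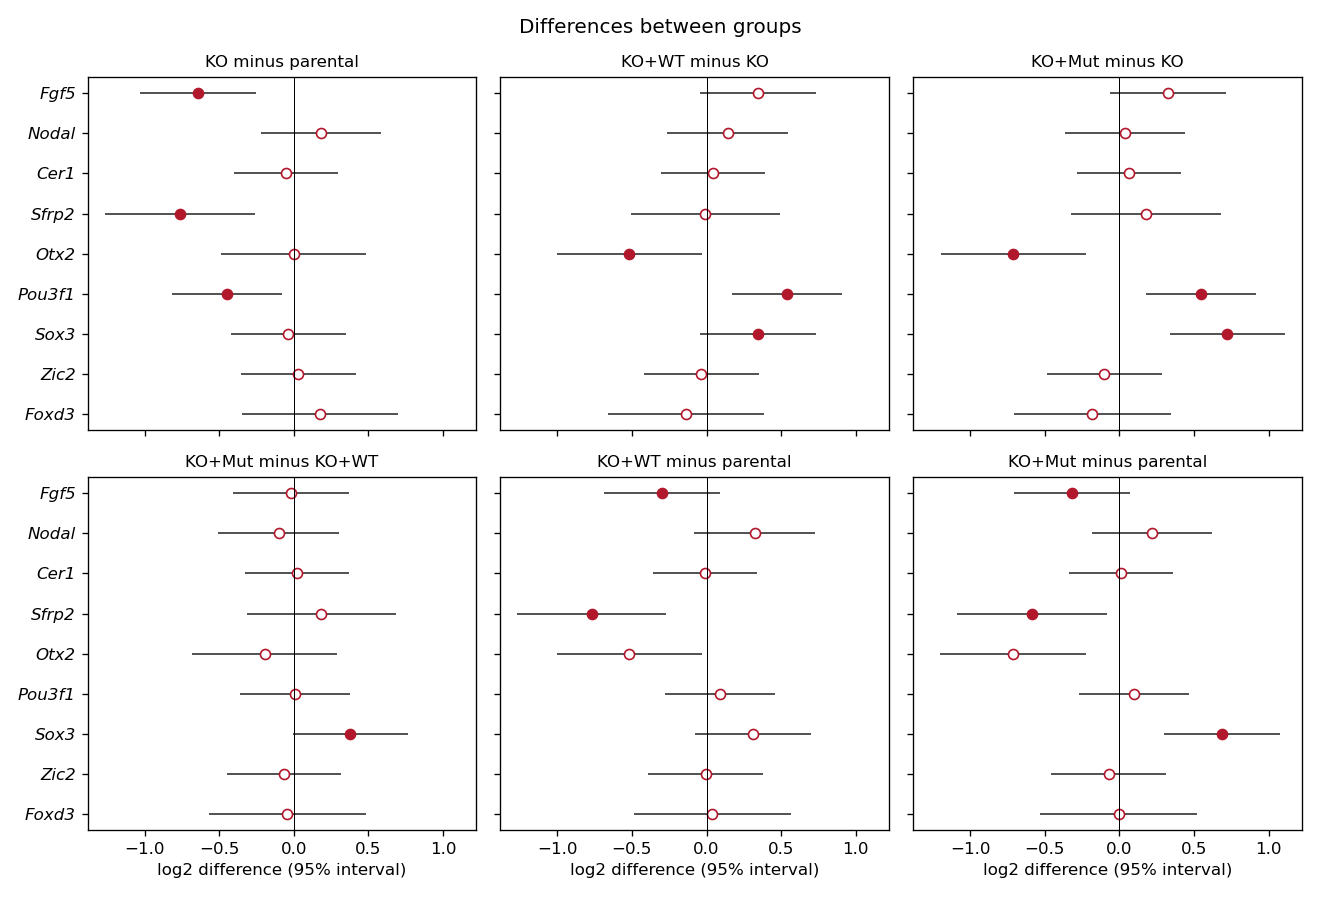
Difference in signal (log2, horizontal axis) with its 95% interval for the 9 genes (rows) in the 6 comparisons (panels), from the fit of all 12 arrays. The intervals of Fgf5, Sfrp2 and Pou3f1 lie below 0 in KO minus parental, and those of Sox3 above 0 and Otx2 below 0 in KO+Mut minus KO and KO+Mut minus parental. None passed in that fit, which has no replicate block, after adjustment over 22180 genes.

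The order of the group means therefore differed from gene to gene. From high to low it was KO+Mut, KO+WT, parental and KO for both Pou3f1 and Sox3. It was parental, KO, KO+WT and KO+Mut for Otx2, parental, KO+WT, KO+Mut and KO for Fgf5, and parental, KO+Mut, KO and KO+WT for Sfrp2. No 2 neighbours in these orders passed the test. Over the 12 arrays, with each gene set to its own mean, the 2 members closest to each other were Zic2 and Cer1 (root-mean-square difference 0.264) and the farthest apart were Otx2 and Sox3 (0.698).

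Within groups, several members followed the replicate number, whose meaning the labels do not give. Of the spread of Otx2 within groups, 94.5% lay between replicate numbers, and replicate 1 was below its group mean in all 4 groups, by 0.34 on average. The share was 84.6% for Nodal, whose replicate 1 was below in 4 of 4 groups and replicate 3 above in 4 of 4, and 84.6% for Sfrp2, whose replicate 2 was below and replicate 3 above in 4 of 4. It was 68.9% for Foxd3, 64.1% for Zic2, 38.4% for Sox3, 20.0% for Fgf5, 2.80% for Pou3f1 and 0.482% for Cer1, beside a median of 38.4% and an upper quartile of 65.2% over all genes. Otx2, Nodal, Sfrp2 and Foxd3 lay above that quartile. What the replicate numbers stand for was not tested.

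**Figure D3:**
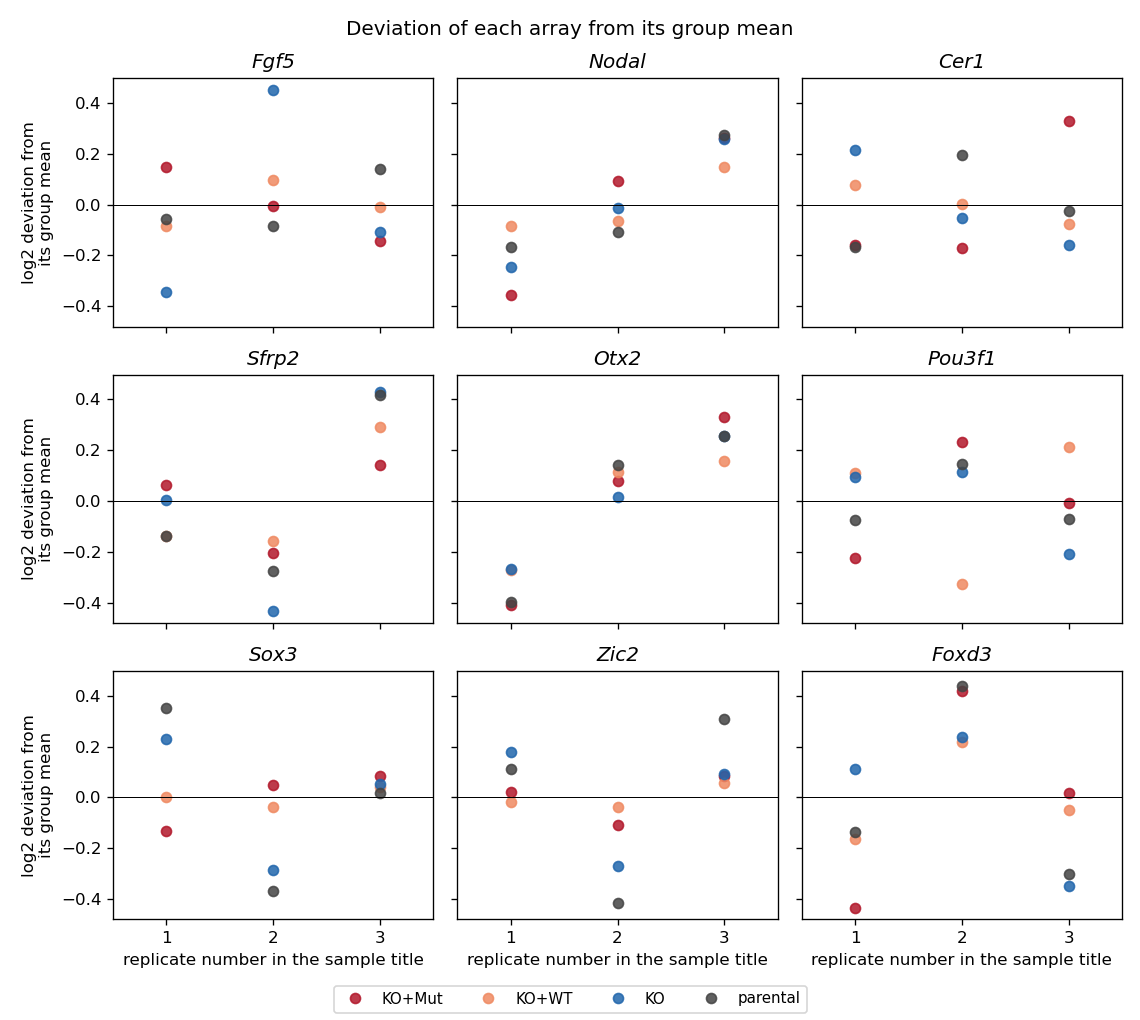
Deviation of each array from its group mean (log2, vertical axis) by replicate number (horizontal axis) for the 9 genes, with a point for each of the 12 arrays coloured by group. For Otx2 all 4 points of replicate 1 lie below 0, for Sfrp2 all 4 of replicate 2 lie below and all 4 of replicate 3 above 0, and for Pou3f1 and Cer1 the points of each number lie on both sides.

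A wider list of 28 other formative and primed genes gave 26 that were measured. In KO against parental cells 0 of 26 passed, with 8 above and 18 below 0 and a median difference of -0.13, beside 0.00 for all genes. In KO+WT against parental cells 0 of 26 passed (11 above 0, median -0.15), and in KO+Mut against parental cells 0 of 26 (6 above 0, median -0.11). Dnmt3b, the DNA methyltransferase that is turned on with formative pluripotency, was 7.13 ± 0.51 in KO+Mut, 7.18 ± 0.66 in KO+WT, 7.26 ± 0.53 in KO and 8.12 ± 0.55 in parental cells (mean ± SD, n = 3 each). Its difference from parental cells was -0.99 in KO+Mut (adjusted p = 0.323, and 0.000973 with the block), -0.93 in KO+WT (0.389 and 0.00192) and -0.86 in KO cells (0.679 and 0.00439). Each call with the block held in 6 of 6 fits that left out 1 array. In the fits of 6 arrays with the block the adjusted p was 0.0218 for KO+Mut, 0.103 for KO+WT and 0.0798 for KO cells. The block also called Dnmt3a lower in KO+WT (-0.49, adjusted p = 0.0491) and in KO+Mut cells (-0.59, adjusted p = 0.0193), and in KO+Mut cells Tead2 lower by 0.55 (0.0297) and Grhl2 lower by 0.76 (0.0448), with Sall3 higher by 0.61 (0.0338). Each of those calls was lost in at least 5 of 6 fits that left out 1 array, up to 0.197 for Dnmt3a in KO+WT cells without parental replicate 2. Against KO cells, 0 of 26 passed in either add-back. The genes of smallest p were Sox11 (0.59, adjusted p = 0.131) and Lin28b (-0.54, 0.155) in KO+Mut cells, and Hes6 (0.45, 0.177) and Evx1 (0.43, 0.267) in KO+WT cells. Between the add-backs 0 of 26 passed, with Sox11 at 0.36 and Lin28b at -0.33 (adjusted p = 1 for both). Cdh2, the N-cadherin gene, was -0.44 in KO against parental cells (0.504), and Sox4 -0.40 in KO+WT against parental cells (0.337).

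**Figure D4:**
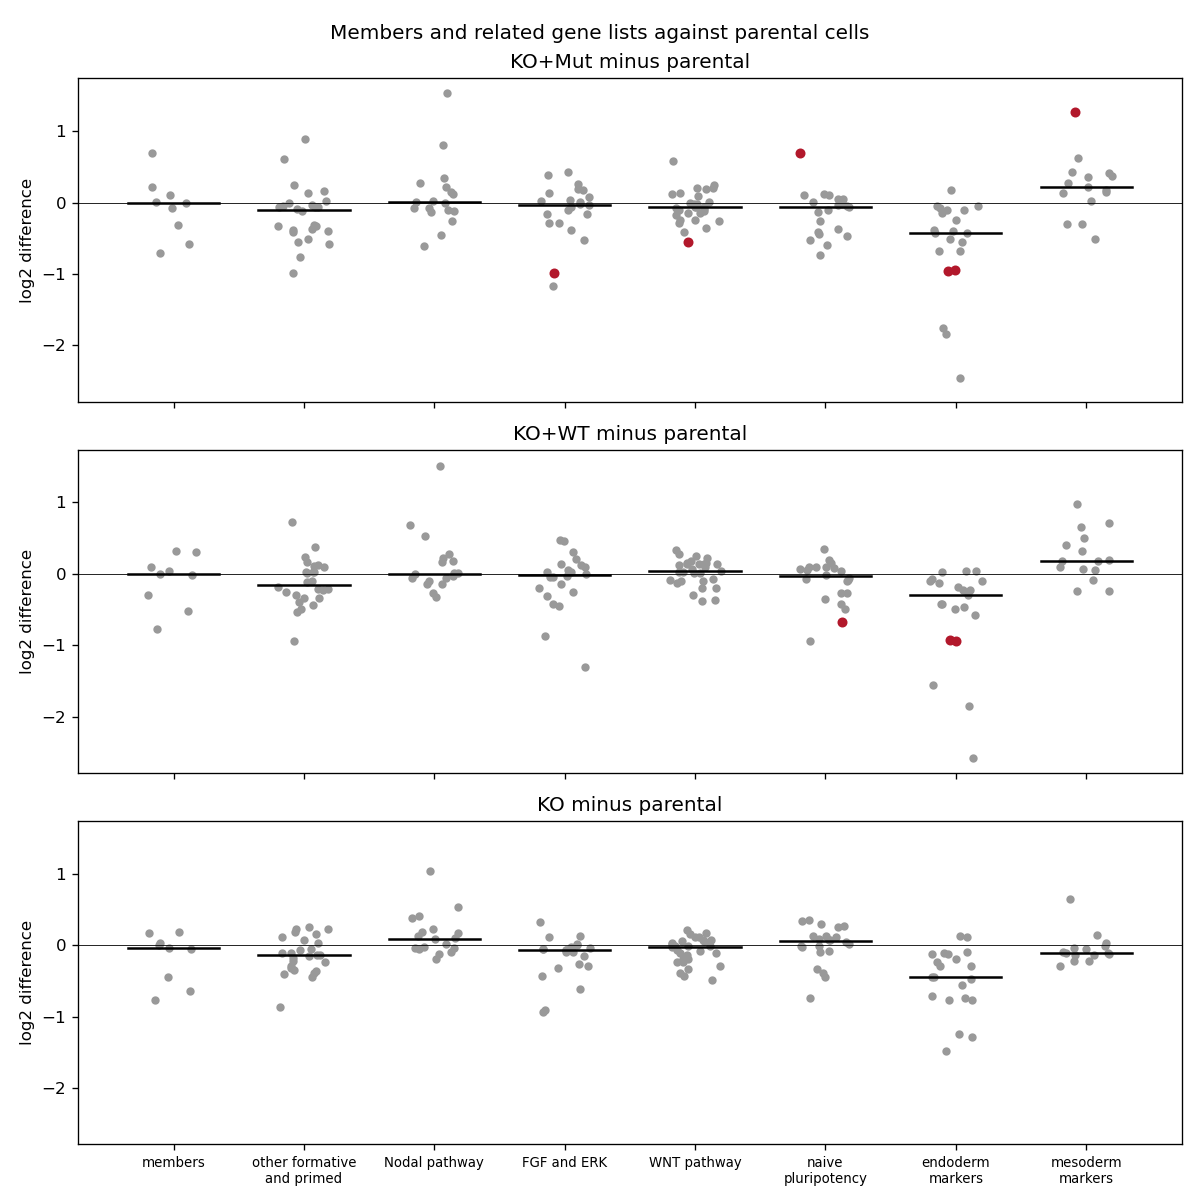
Differences from parental cells (log2, vertical axis) of single genes (points) in the 9 members and in lists of related genes, with the list median as a line, for KO+Mut, KO+WT and KO cells (panels). Red points passed at an adjusted p of 0.05 in the limma fit without a replicate block. None of the members did, and endoderm genes are mostly below 0 in each panel.

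In the Nodal pathway, 0 of 18 measured genes passed in any comparison. Lefty1 and Lefty2, targets and inhibitors of Nodal signalling, were the most variable. Lefty2 was 8.09 ± 0.66 in KO+Mut, 8.08 ± 0.91 in KO+WT, 7.60 ± 1.14 in KO and 6.56 ± 1.27 in parental cells (mean ± SD, n = 3 each). The difference of 1.53 between KO+Mut and parental cells had an adjusted p of 0.402, and 0.00694 with the block, which held in 6 of 6 fits that left out 1 array but not in the fit of the 6 arrays with the block (0.0868). That of KO+WT was 1.51, with 0.436 and 0.0113, and the call with the block was lost in 3 of 6 (up to 0.0594, without parental replicate 2) and in the fit of the 6 arrays (0.105). Lefty1 was higher than in parental cells by 0.81 in KO+Mut (adjusted p = 0.543, and 0.0195 with the block) and by 0.68 in KO+WT cells (0.636 and 0.0474), each call lost in 5 of 6. In KO cells against parental cells the block called 0 of 18, and the genes of smallest p were Pcsk6, a protease that processes Nodal (0.38, adjusted p = 0.511), and Smad7, an inhibitory SMAD (0.54, 0.557). Foxh1, the factor through which SMADs act on Nodal targets, was below KO cells by 0.56 in KO+Mut (0.102) and by 0.25 in KO+WT cells (0.537), and below KO+WT cells by 0.31 in KO+Mut cells (adjusted p = 1). Skil, a SMAD co-repressor, was -0.61 in KO+Mut against parental cells (0.290), and Tdgf1, the Nodal co-receptor, was 0.23 in KO+WT against parental cells (0.424).

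Of 22 measured genes of the FGF and ERK pathway, through which Fgf5 and Fgf4 act, 1 passed, in KO+Mut against parental cells only. Dusp4, a phosphatase induced by ERK that inactivates it, was 6.25 ± 0.35 in KO+Mut, 6.37 ± 0.16 in KO+WT, 6.33 ± 0.20 in KO and 7.24 ± 0.27 in parental cells (mean ± SD, n = 3 each). It fell by 0.99 in KO+Mut cells (SE 0.19, adjusted p = 0.0270), a call lost in 4 of 6 fits that left out 1 array (adjusted p up to 0.132, without parental replicate 2). KO+WT cells were lower by 0.86 (adjusted p = 0.0778, and 0.00778 with the block) and KO cells by 0.91 (0.0995 and 0.00909). With the block the KO+Mut call held in 6 of 6 fits that left out 1 array, the KO+WT call in 5 of 6 and the KO call in 3 of 6. In the fits of the 6 arrays with the block the adjusted p was 0.0409 for KO+Mut, 0.125 for KO+WT and 0.114 for KO cells. Fgfr2, a receptor, was lower than in parental cells by 1.17 in KO+Mut (0.172 and 0.0166), by 1.30 in KO+WT (0.150 and 0.0154) and by 0.94 in KO cells (adjusted p = 0.537), and the calls with the block were lost in 6 of 6 fits for KO+Mut and 3 of 6 for KO+WT cells. In the fits of the 6 arrays with the block they were 0.0331 for KO+Mut and 0.131 for KO+WT cells. With the block the fits against parental cells also called Spred1, an inhibitor of the pathway, lower in KO+Mut (-0.39, 0.0402) and KO+WT cells (-0.44, 0.0309), and Fgf4 lower by 0.53 in KO+Mut cells (0.0210), all lost in 6 of 6. Against KO cells 0 of 22 passed, with Egr1, an immediate target of ERK, at 0.82 in KO+Mut (adjusted p = 0.133) and Fgfr3, a receptor, at 0.77 in KO+WT cells (0.170).

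Of 29 measured genes of the WNT pathway and its secreted inhibitors, the group Sfrp2 belongs to, 1 passed. Fzd7, a WNT receptor, fell in KO+Mut against parental cells by 0.55 (SE 0.12, adjusted p = 0.0445), a call lost in 6 of 6 fits that left out 1 array (adjusted p up to 0.170). With the block the adjusted p of this Fzd7 difference was 0.0265, lost in 5 of 6. Axin2, a target of WNT signalling, was 0.59 higher in KO+Mut than in parental cells (adjusted p = 0.146, and 0.0183 with the block, lost in 5 of 6 fits that left out 1 array) and 0.70 higher than in KO cells (adjusted p = 0.0656). Fzd1 was 0.52 in KO+WT against KO cells (0.129) and -0.33 in KO against parental cells (0.647), and Fzd7 was -0.42 in KO against parental cells (0.283).

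Among 22 measured naive genes, which go down as the formative genes come on, 0 passed in KO against parental cells, where Fbxo15 was at -0.44 (adjusted p = 0.280) and Gbx2, a target of LIF signalling, at -0.38 (0.385). Fbxo15, an F-box gene of embryonic stem cells, rose by 1.13 in KO+Mut (adjusted p = 0.000283) and by 0.79 in KO+WT cells (0.00689) against KO cells, and was above parental cells by 0.69 in KO+Mut cells (0.0134). Both calls against KO cells held in 6 of 6 fits that left out 1 array, and the call against parental cells in 3 of 6. With the block the call against parental cells had an adjusted p of 0.00735 and held in 6 of 6. In the fit of 6 arrays with the block it was 0.0685. Prdm14, a regulator of the naive state and of germ cells, fell by 0.70 in KO+Mut (0.0194) and 0.78 in KO+WT cells (0.0148) against KO cells. Each of these calls was lost in 4 of 6 fits that left out 1 array. Prdm14 was also below parental cells by 0.67 in KO+WT cells (0.0464, and 0.0335 with the block), lost in 6 of 6 either way. The block also called it lower by 0.59 in KO+Mut than in parental cells (0.0407, lost in 5 of 6). In KO+Mut against KO cells 20 of 22 naive genes did not pass. Of all 22, 16 lay below 0 in that comparison (median -0.18), and 17 did so in KO+WT against KO cells (median -0.17).

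Markers of other cell types moved beside these values. The summed linear signal of 21 endoderm markers was 1713 to 2291 in KO+Mut, 1844 to 2411 in KO+WT and 1949.6 to 2297 in KO cells, against 2613 to 3460.4 in parental cells, and 0 of the 21 lay below the lower quartile of all genes on every array. Against parental cells 2 of 21 passed in KO+Mut and in KO+WT cells, Lamb1 (-0.95 in KO+Mut, -0.92 in KO+WT) and Lama1 (-0.95 in KO+Mut, -0.94 in KO+WT), which encode laminin chains, and 0 of 21 in KO cells, where 19 were below 0 with a median of -0.44. Without the block, leaving out 1 array lost the Lamb1 call in 1 of 6 fits for KO+Mut and 4 of 6 for KO+WT cells, and the Lama1 calls in 5 of 6. With the block 5 of 21 passed in KO+Mut and in KO+WT cells and 2 of 21 in KO cells, all lower, among them Pdgfra, a receptor of primitive endoderm, by 1.76 in KO+Mut, 1.55 in KO+WT and 1.24 in KO cells. Cubn was at -2.46 in KO+Mut and -2.58 in KO+WT cells, and Dab2 at -1.85 and -1.84. In both add-backs the Pdgfra, Cubn, Dab2 and Lama1 calls with the block held in 6 of 6 fits that left out 1 array, and Lamb1 in 2 of 6. In KO cells Pdgfra held in 6 of 6 and Lama1 in 0 of 6. In the fits of 6 arrays with the block, Pdgfra and Cubn passed in both add-backs and Dab2 in KO+Mut cells only. Lama1 and Lamb1 passed in neither. Sfrp2 (by the probe set used), Fgf5, Dnmt3b, Dusp4 and Fgfr2 were likewise below parental cells in these 3 groups, and the part of endoderm cells in this was not tested. Summed signals of 2 other lists were also lower against parental cells. That of 14 fibroblast markers was 832 to 1008 in KO+Mut, 871 to 1065 in KO+WT and 864 to 1000.6 in KO cells, against 1058 to 1260.1 in parental cells, with overlap only for KO+WT, and Lum, Dcn and Postn lay below the lower quartile of all genes on every array. That of 14 trophectoderm markers was 552 to 775 in KO+Mut, 577 to 801 in KO+WT and 609 to 745 in KO cells, against 753 to 944 in parental cells, with KO cells alone not overlapping. A linear sum weighs strong genes most. Vim, at 9.87 in parental cells the strongest fibroblast marker, was lower by 0.50 in KO+Mut, 0.41 in KO+WT and 0.45 in KO cells. The mean log2 signal of the fibroblast list was 4.06 in both add-backs and 3.94 in KO cells, against 4.01 in parental cells. Against parental cells, 9 of 14 fibroblast markers were above 0 in each add-back and 3 of 14 in KO cells. None of the fibroblast markers passed without the block, and 1 of 14 trophectoderm markers, Ascl2, passed in KO+Mut cells and was higher. The block called Vim and Peg10, a trophectoderm marker, lower in all 3 groups against parental cells. Leaving out 1 array lost these calls in 2 and 3 of 6 fits for KO+Mut cells. For KO+WT and KO cells they were lost in at least 5 of 6. In KO+Mut cells the block called Tfap2c lower and Ascl2 higher (each lost in 5 of 6). In KO cells it called Pdgfrb higher (lost in 6 of 6). The part of these 2 lists was not tested either. Of the 15 mesoderm markers 2 rose in KO+Mut against KO cells, Snai1 by 1.40 and Foxf1 by 0.67, calls lost in 2 of 6 and 6 of 6 fits that left out 1 array. Foxf1 also rose in KO+WT against KO cells, by 0.69 (adjusted p = 0.0499, lost in 5 of 6), and Snai1 in KO+Mut against parental cells, by 1.26 (0.0375, lost in 6 of 6). With the block that Snai1 call had an adjusted p of 0.00386 and held in 6 of 6 fits that left out 1 array. In the fit of the 6 arrays with the block it was 0.0121. The block also called Snai1 higher in KO+WT than in parental cells, by 0.98 (0.0189, lost in 5 of 6). Between the add-backs 0 of 15 passed. The summed signal of the 15 was 535 to 721 in KO+Mut, 575 to 773 in KO+WT, 498 to 635 in KO and 512 to 666 in parental cells. The mean log2 signal of the list was 4.73 in KO+Mut, 4.76 in KO+WT, 4.47 in KO and 4.51 in parental cells. Against parental cells 12 of 15 were above 0 in each add-back and 3 of 15 in KO cells. The list as a whole was not tested.

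Of 15 neuroectoderm markers, of cells in which Sox3, Pou3f1 and Zic2 are also known, 0 passed in any comparison. Their summed signal was 549 to 621 in KO+Mut, 539 to 657 in KO+WT, 545 to 597 in KO and 550.3 to 612 in parental cells, and these ranges overlap. Genes of the state that resembles the 2-cell embryo, which Dppa2 and Dppa4 are known to turn on, differed far more than any member. Of 15 such genes 12 rose in KO+Mut and 10 in KO+WT against KO cells, with summed signals of 7495 to 17179 in KO+Mut, 3349 to 12821 in KO+WT, 100.0 to 108 in KO and 283 to 641 in parental cells. The 6 of smallest p against KO cells were Usp17le, a deubiquitinase gene (7.40 in KO+Mut, 7.02 in KO+WT), Zscan4e (9.04 in KO+Mut, 8.49 in KO+WT), Pramel19 (8.24 in KO+Mut, 7.63 in KO+WT), Tdpoz3 (7.19 in KO+Mut, 6.11 in KO+WT), Zscan4b (7.81 in KO+Mut, 6.95 in KO+WT) and Zscan4c (6.42 in KO+Mut, 5.77 in KO+WT). These belong to families of near-identical copies, so a probe set may read several. Against parental cells 12 rose in KO+Mut and 10 in KO+WT cells, Tdpoz3 for example by 5.57 in KO+Mut and 4.49 in KO+WT, and 3 fell in KO cells, Zscan4e by 4.41, Pramel19 by 3.29 and Usp17le by 2.99, the Pramel19 call being lost in 2 of 6 fits that left out 1 array. With the block 5 of 15 fell in KO cells, those 3 holding in 6 of 6 such fits and Zscan4c and Zscan4b lost in 4 of 6. The block called 12 higher in KO+Mut and 11 in KO+WT than in parental cells. The part of such cells in the Otx2, Sox3 and Pou3f1 values was not tested.

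For the 5 members whose group means spanned at least 0.5 log2, the genes closest over the 12 arrays were found among 15118 genes, as the root-mean-square difference of values set to each gene's mean. They were Slc1a3 (0.13), Dse (0.135) and Zfp985 (0.149) for Otx2, and Cdkn2c (0.112), Kif26b (0.169) and Uap1 (0.174) for Sox3. For Pou3f1 they were Susd3 (0.135), Cd207 (0.146) and Vsx1 (0.154), for Sfrp2 Glt1d1 (0.173), Cdh5 (0.177) and Ttpa (0.184), and for Fgf5 Rfng (0.182), Smtnl1 (0.183) and Tns4 (0.184). The members' own root-mean-square spread was 0.405 for Otx2, 0.347 for Sox3, 0.285 for Pou3f1, 0.410 for Sfrp2 and 0.295 for Fgf5. This is a description over arrays that share groups and replicate numbers.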

How the data were processed

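RNA levels of 12 mouse embryonic stem cell samples were measured on arrays from total RNA taken with TRIzol and labelled as biotin cDNA with the Affymetrix WT Plus kit, per the labels' protocols. The authors deposited normalized log2 signals for each probe set on each array. The Transcriptome Analysis Console was used, per the submitters' processing notes; its version, background correction, summarization and genome build: not given in the sources used here. If that step compressed low signals, the differences are compressed too. That the scale is log2 was judged from the values. The 12 arrays held no identical pair.

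Of 41345 probe sets, 23521 carried 1 gene symbol by the platform annotation of GEO, 1814 several and 16010 none, and the last 2 kinds were not used. Identifiers of 23328 were found in RefSeq (GRCm38.p6) and 0 symbols were updated. Of several probe sets of a gene the one with the highest mean was taken, which left 22180 genes. The lmFit and eBayes functions of limma 3.58.1 (R 4.3.3) fitted 1 mean per group over all 12 arrays, with two-sided p-values adjusted by Benjamini-Hochberg over 22180 genes, a threshold of 0.05 and no fold limit. Promoter windows were the 250 bases before each RefSeq start. Python 3.11.15 with numpy 2.4.6, pandas 2.3.3 and matplotlib 3.10.9 served for tables and figures.

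Tested on simulated data for KO against parental cells over 22180 genes, the fit called 9 of 100 genes changed by 0.5 log2 and 75 of 100 changed by 1, with 5 false calls. Taken about the group means, arrays of one number correlated at over 0.1 in each pair for KO against parental (0.36, 0.15 and 0.42), KO+Mut against KO+WT (0.40, 0.21 and 0.47), KO+WT against parental (0.33, 0.15 and 0.31) and KO+Mut against parental (0.33, 0.13 and 0.36), so those arrays were taken as paired. The main fit has no block and leaves this pairing out. For these comparisons the block fit is given beside it for the counts of members and for some of the other genes named, not for all. Against KO cells the second pair gave 0.06 for KO+WT and 0.08 for KO+Mut, so these arrays were not taken as paired.

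The members, the gene lists and the tests were chosen with earlier results of these data known. Named were all members, Dppa2 and Dppa4, list genes past the threshold (at most 6 by p, otherwise the 2 of smallest p) and the 3 genes most like each member of wide span. Genes of the marker lists, and of the comparison of the add-backs, that did not pass are mostly given by counts, and a few genes of the 2-cell-like list stand for those that passed in several comparisons. Genes that only the replicate block called (among them Dnmt3a, Sox2, Lin28a and Spred1) were named after their values were seen. Alternatives were a replicate block, quantile normalization repeated, median centring, eBayes with trend and robust variances, averaged probe sets, all probe sets tested, leaving out genes below percentile 25, array weights, a fit of the 6 arrays compared and leaving out each array. The block within the fit of 6 arrays, and with each array left out, was added after the data were seen.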

Additional observations from a re-analysis of the deposited data

How the results depend on the processing

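With the replicate number as a block, the count of the 9 members that passed moved to 1 in KO against parental cells (Sfrp2), 1 in KO+WT against KO cells (Otx2, adjusted p = 0.0237), 2 in KO+Mut against KO cells (Otx2, 0.00414, and Sox3, 0.0371), 2 in KO+WT against parental cells and 3 in KO+Mut against parental cells, and it stayed at 0 in KO+Mut against KO+WT cells. Same-numbered arrays of the add-backs and KO cells were not taken as paired. Of the calls against KO cells, Otx2 in KO+Mut cells held in 6 of 6 fits that left out 1 array, and the other 2 in 1 of 6 each. With the block in fits of the 6 arrays compared, an alternative chosen after seeing the data, 0 members passed in each comparison. With array weights 1 member, Sox3, passed in KO+Mut against KO cells (adjusted p = 0.0352) and 1, Sox3, against parental cells (0.0468). Leaving out each array gave 0 to 1 members in KO+Mut against parental cells, the 1 being Sox3 without parental replicate 1, and 0 in the other comparisons. Quantile normalization, median centring, trend and robust variances, the mean of probe sets, all probe sets, the low-signal filter (which left out Fgf5 and Cer1) and fits of 6 arrays gave 0 members in every comparison, and no called difference of a member changed sign under any alternative.

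Over all genes, the counts of 53, 184, 282, 0, 122 and 220 in KO against parental, KO+WT against KO, KO+Mut against KO, KO+Mut against KO+WT, KO+WT against parental and KO+Mut against parental cells became 137, 494, 716, 0, 458 and 695 with the block, and 20, 45, 179, 0, 35 and 135 with the block in fits of the 6 arrays compared. Leaving out 1 array gave 19 to 31, 86 to 164, 119 to 207, 0, 51 to 131 and 104 to 159 in the same comparisons; the lowest were without KO or parental replicate 2 in the first, without KO replicate 2 in the second, without KO+Mut replicate 2 in the third, without parental replicate 2 in the fifth and without KO+Mut replicate 2 in the sixth. Array weights gave 139, 528, 185 and 455 in KO against parental, KO+Mut against KO, KO+WT against parental and KO+Mut against parental cells. Fits of the 6 arrays compared gave 27 in KO against parental, 75 in KO+WT against KO and 52 in KO+WT against parental cells. All probe sets gave 31 in KO against parental cells. In the simulated data changes of 0.5 log2 were mostly missed and those of 1 mostly called, and the largest differences of these genes lie between. Differences of that size can thus be missed with 3 arrays a group. The simulation covered KO against parental cells only, drew noise separately for each array and used no block. It therefore sets no limit for the block fit, or for genes that follow the replicate number. The low signals of Fgf5 and Cer1 cannot be separated from background.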

Other observations

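Of 24 measured paralogs of the 9 genes, 1 passed in 1 comparison. Foxd1, a forkhead relative of Foxd3 known from the developing kidney stroma, was 3.80 in KO+Mut and 3.17 in KO cells on average, a rise of 0.63 (limma adjusted p = 0.0138) that was lost in 4 of 6 fits that left out 1 array (up to 0.0635, without KO replicate 3). Pou3f2, a relative of Pou3f1, was 2.78 in KO+WT and 2.36 in KO cells (0.41, adjusted p = 0.224). Otx1, the paralog of Otx2, was 5.48 in KO+Mut and 5.08 in KO cells (0.40, adjusted p = 0.317), and neither passed. Sox2, of the same SOX group as Sox3, was 9.43 in KO+Mut and 9.80 in KO cells (-0.37, adjusted p = 0.135), a difference of the opposite sign to that of Sox3 which did not pass. Ascl2, a trophoblast factor, rose by 0.84 in KO+Mut against KO cells (adjusted p = 0.00501), a call that held in 6 of 6 fits that left out 1 array, and by 0.68 against parental cells (0.0247), which held in 1 of 6.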
